A study of Homo sapiens with 4 samples.

Results

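Aminoacyl-tRNA synthetases are the enzymes that join each amino acid to its tRNA before translation. The 35 synthetase genes described here were found by looking up the symbol of each Ensembl gene ID, a step that uses no measured value, and they are 35 of the 60614 gene IDs in the deposited tables. By name they fall into 19 cytosolic enzymes and 16 mitochondrial enzymes, whose names end in 2. RNA-seq libraries were made from DU145, an established line of human prostate cancer cells, in 2 genotypes: cells with the F133V form of SPOP (2 libraries) and cells labelled wild-type (2 libraries). SPOP is an adaptor that brings substrates to a CUL3 ubiquitin ligase. Both genotypes were grown in EMEM with serum and antibiotics, with no treatment named in the labels. The labels leave unsaid whether the F133V cells are a clone, a pool or an overexpression line, and whether each replicate is a culture of its own. The p-values thus reflect the spread between these 4 libraries alone, which could be technical.

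Each synthetase activates its amino acid with ATP and then transfers it to the matching tRNA, and the enzymes form classes I and II by the fold of their catalytic domain. In human cells a group of the cytosolic enzymes sits in the multi-synthetase complex, held by the scaffold proteins AIMP1, AIMP2 and EEF1E1, while the others work free in the cytosol. Mitochondria use a separate set, encoded in the nucleus and imported, except that GARS1 and KARS1 each make both the cytosolic and the mitochondrial enzyme. Many cytosolic synthetase genes are targets of ATF4, the transcription factor of the amino acid response, and WARS1 is also known for its induction by interferon-gamma.

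Between 35173245 and 39642063 reads per library fell in genes. SPOP itself stood at 1171.2 and 1150.6 CPM (TMM-scaled counts, comparable between libraries) in F133V cells and 844 and 906 CPM in wild-type cells, and gene counts cannot tell mutant from normal SPOP transcripts. The epithelial markers KRT8, KRT18, KRT19, EPCAM and CDH1, which DU145 cells are known to express, summed to 2241.7 and 2440.5 CPM in F133V cells and 1834.5 and 1833.2 CPM in wild-type cells. KLK3 was at 0, and 4 hematopoietic markers summed to between 0.0567 and 0.196 CPM. In these libraries the genotype difference followed the GC content of each transcript (Spearman rho 0.73 over 11977 expressed genes, which share the same 4 libraries), and so did the difference between the F133V replicates (rho 0.77). Each synthetase is therefore given from 2 fits, one without adjustment and one with an offset for GC content and transcript length (GC-adjusted). What lies behind that trend was not tested, and the adjustment would take away real differences along GC content too. In bulk RNA, fewer cells of a type and less RNA per cell cannot be told apart.

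Promoter sequence is shown first for the genes whose RefSeq window, 250 bases before to 50 bases from the gene start on GRCh38.p14, held the letters TGATGNAA on either strand. These letters are the core of the amino acid response element, which ATF4 binds with C/EBP partners. Each stretch is 70 bases, 5′ to 3′ on the gene's own strand, with the match in capitals. The stretches are chr16:70289655-70289724 on the minus strand for AARS1, chr11:3057399-3057468 on the minus strand for CARS1, and chr12:57488023-57488092 on the plus strand for MARS1. They are chr5:33440920-33440989 on the plus strand for TARS1, chr18:57621812-57621881 on the minus strand for NARS1, and chr9:92293673-92293742 on the minus strand for IARS1. The last 2 are chr7:30594814-30594883 on the plus strand for GARS1 and chr12:32756056-32756125 on the minus strand for YARS2.
AARS1: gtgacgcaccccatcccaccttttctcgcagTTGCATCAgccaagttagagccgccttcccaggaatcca
CARS1: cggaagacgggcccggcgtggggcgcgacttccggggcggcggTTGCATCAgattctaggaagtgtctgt
MARS1: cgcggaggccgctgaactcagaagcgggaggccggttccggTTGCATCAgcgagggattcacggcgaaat
TARS1: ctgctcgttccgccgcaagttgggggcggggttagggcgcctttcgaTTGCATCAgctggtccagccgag
NARS1: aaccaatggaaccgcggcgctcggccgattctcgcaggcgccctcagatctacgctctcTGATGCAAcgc
IARS1: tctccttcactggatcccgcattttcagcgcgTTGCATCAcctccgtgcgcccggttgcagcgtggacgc
GARS1: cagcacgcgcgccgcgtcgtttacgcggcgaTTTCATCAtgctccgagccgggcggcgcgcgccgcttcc
YARS2: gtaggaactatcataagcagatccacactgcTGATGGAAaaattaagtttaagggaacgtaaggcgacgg

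Among the members, 30 had a RefSeq window; VARS1, VARS2, LARS1, AARS2 and YARS1 are named only. The letters TGATGNAA stood in 7 of 16 cytosolic enzymes with a window (43.8%) and in 1 of 14 mitochondrial enzymes (7.14%), against 4.46% of all 27305 genes with a window and 3.62% of all 35116 windows. The identical 8 letters TTGCATCA, the reverse complement of TGATGCAA, stood in AARS1, CARS1, MARS1, IARS1 and TARS1, and NARS1 held them on the other strand. The match lay at base -187 from the start in AARS1, at -4 in MARS1, at -2 in CARS1, at 3 in TARS1 and at 15 in NARS1. Among 27 amino acid response genes with a window, 9 (33.3%) held the letters. No such match overlapped a match to the E-box or NRF1 core letters, and a match is a description of the letters in the window and not of a bound factor.

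The cytosolic synthetases moved in both directions in F133V cells. Without GC adjustment 7 of 19 rose, 8 fell and 4 did not pass the test, where 27.2% of the 17539 tested genes were called higher, 27.6% lower and 54.8% either way (edgeR quasi-likelihood test, Benjamini-Hochberg (BH) adjusted p under 0.05). The enzymes for alanine (AARS1), glutamine (QARS1), tyrosine (YARS1), cysteine (CARS1), serine (SARS1), methionine (MARS1) and tryptophan (WARS1) rose, by log2 fold changes of 0.20 to 0.47. Those for asparagine (NARS1), threonine (TARS1), phenylalanine (the FARSB subunit), arginine (RARS1), glutamate and proline (EPRS1), leucine (LARS1), isoleucine (IARS1) and glycine (GARS1) fell, by log2 fold changes of -0.63 to -0.13. The median log2 fold change of the 19 was -0.11, against 0.022 over all tested genes. With upper-quartile scaling, which moved the median of all genes to 0.13, the cytosolic median was 0.0019, with 7 higher and 7 lower, where 36.8% of all genes were called higher, 21.8% lower and 58.7% either way. GC-adjusted, 5 rose, 7 fell and 7 did not pass, where 27.6% of 17299 genes were called higher, 24.5% lower and 52.2% either way, and the median was -0.066 against 0.018 over all genes. The same call in both fits was made for 5 higher and 5 lower cytosolic enzymes, beside 17.6% of all genes called higher and 14.9% called lower in both.

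**Figure D1:**
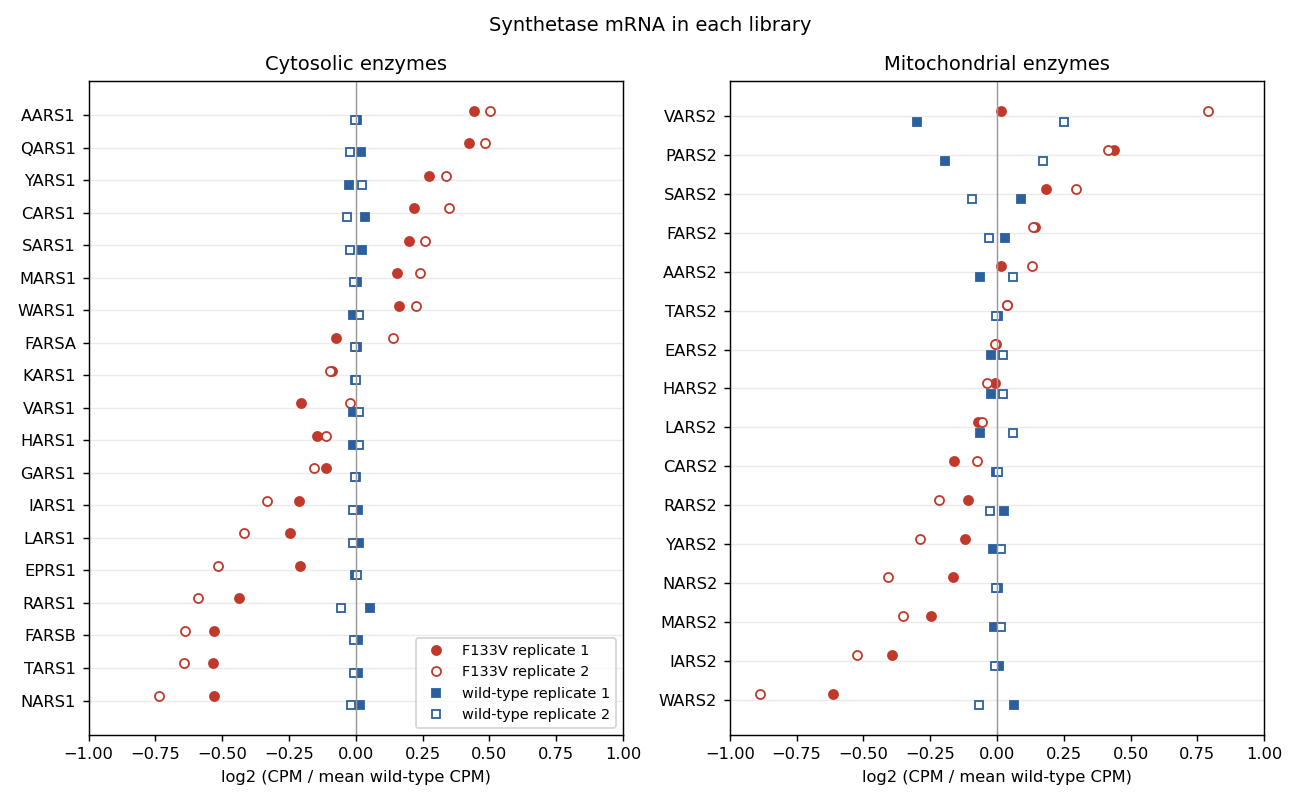
Level of each synthetase mRNA in every library, as log2 of its CPM over the mean of the wild-type libraries; circles are F133V and squares wild-type libraries, filled for replicate 1 and open for replicate 2. AARS1 and QARS1 stood highest among cytosolic enzymes in both F133V libraries, NARS1, TARS1 and FARSB were the lowest 3 of them in both, and WARS2 stood lowest among mitochondrial enzymes.

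In the plot of levels by library, both F133V libraries lay above both wild-type libraries for 7 cytosolic enzymes and below both for 11, with FARSA the 1 that overlapped. Over all tested genes 40.1% lay above and 37.8% below, 78% in all. The F133V replicates were farther apart than the wild-type replicates for many enzymes. Across the 34 members with at least 100 reads in every library, F133V replicate 2 minus replicate 1 ran on the log2 scale from -0.31 in EPRS1 to 0.21 in FARSA, and this gap followed GC content across the 35 members with a Spearman rho of 0.86. The wild-type gap, from -0.18 in SARS2 to 0.37 in PARS2, had a rho of 0.35. These correlations are across genes of the same libraries and are given as a description.

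AARS1 (ENSG00000090861.17, chr16:70252295-70289543, minus strand), the alanine enzyme, had the largest rise among the 35. Its mRNA stood at 985 and 1027.1 CPM in F133V cells and 727 and 724 CPM in wild-type cells, so the groups did not overlap. The log2 fold change was 0.47 ± 0.0534 (SE, adjusted p = 3.01e-07), and 0.32 ± 0.0323 GC-adjusted (adjusted p = 4.67e-11). QARS1 (ENSG00000172053.18, chr3:49095932-49105135, minus strand), the glutamine enzyme of the multi-synthetase complex, stood at 189 and 197 CPM in F133V cells and 143 and 139 CPM in wild-type cells. Both F133V libraries were higher, with a log2 fold change of 0.45 ± 0.0595 (adjusted p = 2.01e-06), and 0.25 ± 0.0351 GC-adjusted (adjusted p = 9.93e-08). AARS1 and QARS1 kept their calls under each of the 16 other settings tried, where 8.34% of all tested genes were called higher throughout.

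YARS1, the tyrosine enzyme, stood at 285 and 298 CPM in F133V cells and 232 and 240 CPM in wild-type cells. It rose by a log2 fold change of 0.31 ± 0.0575 (adjusted p = 1.29e-04), and of 0.11 ± 0.0336 GC-adjusted (adjusted p = 0.00804). CARS1, the cysteine enzyme, stood at 125 and 137 CPM in F133V cells and 110 and 105 CPM in wild-type cells. Its log2 fold change was 0.29 ± 0.0644 (adjusted p = 7.93e-04), and 0.21 ± 0.0383 GC-adjusted (adjusted p = 1.22e-05). SARS1, the serine enzyme, stood at 191 and 199 CPM in F133V cells and 169 and 164 CPM in wild-type cells, with a log2 fold change of 0.23 ± 0.0591 (adjusted p = 0.00258) and of 0.084 ± 0.0344 GC-adjusted (adjusted p = 0.0373). All 3 had both F133V libraries above both wild-type libraries. CARS1 missed without wild-type replicate 2 (log2 fold change 0.25), and SARS1 without wild-type replicate 1 (0.25) or 2 (0.20). GC-adjusted, YARS1 missed without F133V replicate 1 (0.06) or wild-type replicate 1 (0.079), and SARS1 without F133V replicate 1 (0.053), wild-type replicate 1 (0.10) or wild-type replicate 2 (0.065).

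MARS1, the methionine enzyme of the complex, and WARS1, the tryptophan enzyme, passed without adjustment and not with GC and length adjustment. MARS1 stood at 437 and 464 CPM in F133V cells and 394 and 391 CPM in wild-type cells, with a log2 fold change of 0.20 (adjusted p = 0.0054) and 0.042 GC-adjusted (adjusted p = 0.28). WARS1 stood at 159 and 166 CPM in F133V cells and 141 and 143 CPM in wild-type cells, with a log2 fold change of 0.20 (adjusted p = 0.00863) and 0.079 GC-adjusted (adjusted p = 0.0537). With GC adjustment alone, without length, WARS1 was called higher (0.091, adjusted p = 0.0301). For both MARS1 and WARS1, each F133V library lay above each wild-type library. Without wild-type replicate 1 or 2 the calls were lost, at adjusted p of 0.146 and 0.191 for MARS1 and 0.233 and 0.207 for WARS1. Of the MARS1 exon bases 13.3% overlap ARHGAP9, DDIT3 or MIR6758, and without known strand their reads cannot be told apart.

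NARS1 (ENSG00000134440.12, chr18:57600656-57622213, minus strand), the asparagine enzyme, had the largest fall among the cytosolic enzymes. Its mRNA stood at 150 and 130 CPM in F133V cells and 219 and 214 CPM in wild-type cells, a ratio of 0.646. The log2 fold change was -0.63 ± 0.067 (adjusted p = 1.32e-07), and -0.46 ± 0.038 GC-adjusted (adjusted p = 3.68e-13). TARS1 (ENSG00000113407.14, chr5:33440696-33469539, plus strand), the threonine enzyme, stood at 434 and 402 CPM in F133V cells and 632 and 625 CPM in wild-type cells. Both F133V libraries were lower, by a log2 fold change of -0.59 ± 0.0566 (adjusted p = 3.56e-08), and of -0.35 ± 0.0325 GC-adjusted (adjusted p = 7.54e-12). FARSB (ENSG00000116120.11, chr2:222570536-222656337, minus strand), the beta subunit of the phenylalanine enzyme, stood at 75.8 and 70.3 CPM in F133V cells and 110 and 109 CPM in wild-type cells. Its log2 fold change was -0.58 ± 0.0653 (adjusted p = 2.66e-07), and -0.21 ± 0.0387 GC-adjusted (adjusted p = 1.24e-05). NARS1, TARS1 and FARSB were called lower under each of the 16 other settings, where 8.33% of all tested genes were called lower throughout.

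FARSA, the alpha subunit that pairs with FARSB in the phenylalanine enzyme, gave no call without adjustment. FARSA stood at 82.3 and 95.3 CPM in F133V cells and 86.7 and 86.4 CPM in wild-type cells, so the groups overlapped. Its log2 fold change was 0.037 ± 0.0713 (adjusted p = 0.688), and -0.26 ± 0.0397 GC-adjusted, where it fell (adjusted p = 7.18e-07). The GC content of the longest transcript was 60.3% for FARSA and 41.6% for FARSB. VARS1, the valine enzyme and the most GC-rich of the 35 at 62.6%, stood at 244 and 277 CPM in F133V cells and 279 and 283 CPM in wild-type cells. Its log2 fold change was -0.11 (adjusted p = 0.151), and -0.37 ± 0.0332 GC-adjusted, where it fell (adjusted p = 3.43e-12). Without F133V replicate 1 the unadjusted FARSA value was 0.11, and without F133V replicate 2 that of VARS1 was -0.21.

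RARS1, the arginine enzyme of the complex, stood at 80.5 and 72.4 CPM in F133V cells and 113 and 105 CPM in wild-type cells. It fell by a log2 fold change of -0.51 ± 0.0693 (adjusted p = 2.94e-06), and of -0.17 ± 0.0403 GC-adjusted (adjusted p = 6.57e-04). GARS1, the glycine enzyme of both compartments, stood at 357 and 346 CPM in F133V cells and 386 and 385 CPM in wild-type cells. Its log2 fold change was -0.13 ± 0.0552 (adjusted p = 0.0456), and -0.18 ± 0.033 GC-adjusted (adjusted p = 1.46e-05). Both F133V libraries were lower for RARS1 and for GARS1. GARS1 missed with upper-quartile scaling (-0.023) and without wild-type replicate 1 (-0.13) or 2 (-0.14), and GC-adjusted RARS1 missed without wild-type replicate 1 (-0.11).

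The other members of the multi-synthetase complex fell without adjustment and not with it, or did not pass in either fit. EPRS1, the fused glutamate and proline enzyme, stood at 404 and 327 CPM in F133V cells and 466 and 468 CPM in wild-type cells, with the F133V replicates farther apart than for any other cytosolic enzyme. EPRS1 gave a log2 fold change of -0.35 (adjusted p = 3.60e-04), and -0.076 GC-adjusted (adjusted p = 0.11). LARS1, the leucine enzyme, gave -0.33 (adjusted p = 1.21e-04) and 0.064 GC-adjusted (adjusted p = 0.105). IARS1, the isoleucine enzyme, gave -0.27 (adjusted p = 4.75e-04) and -0.029 GC-adjusted (adjusted p = 0.477). KARS1, the lysine enzyme, stood at 317 and 316 CPM in F133V cells and 337 and 338 CPM in wild-type cells, and missed in both fits (-0.092, adjusted p = 0.166, and -0.066, adjusted p = 0.0861). HARS1, the free histidine enzyme, also missed in both (-0.13, adjusted p = 0.0989, and -0.084, adjusted p = 0.074). With F133V replicate 1 or 2 left out, the log2 fold changes were -0.13 and -0.091 for KARS1 and -0.14 and -0.15 for HARS1. Those fits take their spread from the wild-type replicates alone, so their calls cannot be set beside those of all 4 libraries. The 7 enzymes of the complex counted 2 higher, 4 lower and 1 not passing, with a median of -0.27, and GC-adjusted 1 higher, 1 lower and 5 not passing, with a median of -0.029. Over all tested genes 27.2% were called higher and 27.6% lower, and GC-adjusted 27.6% and 24.5%. The counts of the complex, on few genes, are given as a description.

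The 12 free cytosolic enzymes counted 5 higher, 4 lower and 3 not passing, with a median of -0.036 that was 0.075 with upper-quartile scaling. GC-adjusted they counted 4 higher, 6 lower and 2 not passing, with a median of -0.13. By catalytic class, the 9 class I cytosolic enzymes counted 5 higher and 3 lower, and the 9 class II enzymes 2 higher and 4 lower. GC-adjusted the counts were 3 higher and 2 lower in class I, and 2 higher and 5 lower in class II. EPRS1 holds a domain of each class and was left out of both. Over all tested genes the shares higher and lower were 27.2% and 27.6%, and GC-adjusted 27.6% and 24.5%. The counts of free enzymes and of classes, on few genes, are given as a description.

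Cytosolic enzymes with the amino acid response letters were called in both directions. Of the 7 with TGATGNAA, AARS1, CARS1 and MARS1 rose while TARS1, NARS1, IARS1 and GARS1 fell, with a median log2 fold change of -0.13. GC-adjusted, AARS1 and CARS1 rose and TARS1, NARS1 and GARS1 fell, and the median was -0.03. Of the 9 cytosolic enzymes with a window and no match, 3 rose and 3 fell. The amino acid response genes with the same letters counted 7 higher and 1 lower of 9, and GC-adjusted 7 higher and 0 lower. Those with a window and no match counted 10 higher and 3 lower of 18 in both fits. Over all tested genes 27.2% were called higher and 27.6% lower, and GC-adjusted 27.6% and 24.5%.

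Summed over the set, cytosolic synthetase mRNA was close in the genotypes. The 19 enzymes summed to 5288.5 and 5231.4 CPM in F133V cells and 5449.4 and 5411.8 CPM in wild-type cells, a log2 ratio of -0.046. The 7 enzymes of the complex summed to 2121.6 and 2003.9 CPM in F133V cells and 2273.1 and 2247.2 CPM in wild-type cells, a log2 ratio of -0.13. The 12 free enzymes summed to 3167.0 and 3227.4 CPM in F133V cells and 3176.3 and 3164.5 CPM in wild-type cells, with overlapping groups. No test was made on the sums, since 2 libraries against 2 cannot give an exact permutation p below 0.333.

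Of the 16 mitochondrial synthetases 1 rose, 5 fell and 10 did not pass, beside 27.2% higher and 27.6% lower over all tested genes. The tryptophan (WARS2), isoleucine (IARS2), methionine (MARS2), asparagine (NARS2) and tyrosine (YARS2) enzymes fell, and the proline enzyme PARS2 rose. GC-adjusted, 1 rose, 9 fell and 6 did not pass, beside 27.6% higher and 24.5% lower over all genes. The median log2 fold change was -0.042, and -0.12 GC-adjusted. With upper-quartile scaling it was 0.07, against 0.13 over all genes. Of the enzymes 5 were then higher and 2 lower, beside 36.8% and 21.8% of all genes. WARS2, IARS2, MARS2 and YARS2 fell in both fits and 0 rose in both, beside 14.9% lower and 17.6% higher in both over all genes. Libraries did not overlap for 4 enzymes that lay higher and 7 that lay lower, beside 40.1% higher and 37.8% lower over all tested genes. DESeq2 called 0 higher and 3 lower, where it called 2955 higher and 4008 lower among all genes. With edgeR the mitochondrial median was -0.084 without wild-type replicate 1 and -0.0051 without wild-type replicate 2.

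WARS2 (ENSG00000116874.12, chr1:119031216-119140671, minus strand), the mitochondrial tryptophan enzyme, had the largest fall of all 35. It stood at 12.3 and 10.2 CPM in F133V cells and 19.7 and 18 CPM in wild-type cells, a ratio of 0.597 with no overlap. The log2 fold change was -0.74 ± 0.0975 (adjusted p = 2.01e-06), and -0.45 ± 0.0747 GC-adjusted (adjusted p = 3.21e-06). IARS2 (ENSG00000067704.10, chr1:220094102-220148041, plus strand), the mitochondrial isoleucine enzyme, stood at 244 and 223 CPM in F133V cells and 322 and 319 CPM in wild-type cells. Both F133V libraries were lower, with a log2 fold change of -0.46 ± 0.0597 (adjusted p = 1.91e-06), and of -0.24 ± 0.0335 GC-adjusted (adjusted p = 8.90e-08). WARS2 and IARS2 kept their calls under each of the 16 other settings.

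MARS2, the mitochondrial methionine enzyme, stood at 9.43 and 8.78 CPM in F133V cells and 11.1 and 11.3 CPM in wild-type cells. It fell by a log2 fold change of -0.30 ± 0.097 (adjusted p = 0.0135), and of -0.33 ± 0.0849 GC-adjusted (adjusted p = 0.00135). YARS2, the mitochondrial tyrosine enzyme, stood at 22.7 and 20.2 CPM in F133V cells and 24.4 and 24.9 CPM in wild-type cells, with -0.20 ± 0.0823 (adjusted p = 0.0473) and -0.30 ± 0.0623 GC-adjusted (adjusted p = 1.04e-04). Neither had overlapping groups, and both held the NRF1 core letters GCGCATGC, which stood in 2 of 14 mitochondrial, 0 of 16 cytosolic and 3.68% of all genes with a window. The E-box letters CACGTG stood in MARS2, CARS2 and EARS2, 21.4% of the mitochondrial enzymes with a window, in IARS1 among the cytosolic ones, and in 8.77% of all genes. Without GC adjustment MARS2 missed with DESeq2 (-0.32), upper-quartile scaling (-0.19) and without wild-type replicate 1 (-0.32) or 2 (-0.28). YARS2 missed with DESeq2 (-0.22), upper-quartile scaling (-0.088), no filter on low counts (-0.20), and without F133V replicate 2 (-0.12), wild-type replicate 1 (-0.22) or wild-type replicate 2 (-0.19).

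NARS2 and PARS2, the mitochondrial asparagine and proline enzymes, passed without adjustment and not with it. NARS2 stood at 27.8 and 23.5 CPM in F133V cells and 31.2 and 31.1 CPM in wild-type cells, with -0.28 (adjusted p = 0.00885) and -0.10 GC-adjusted (adjusted p = 0.155). PARS2 stood at 6.16 and 6.06 CPM in F133V cells and 3.97 and 5.13 CPM in wild-type cells, with 0.43 (adjusted p = 0.00871) and 0.24 GC-adjusted (adjusted p = 0.0896). The PARS2 wild-type replicates differed by 0.37 on the log2 scale, and PARS2 missed without wild-type replicate 1 (0.25) and with DESeq2 (0.41). NARS2 missed with upper-quartile scaling (-0.17) and without wild-type replicate 1 (-0.28) or 2 (-0.28).

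The GC adjustment brought 5 further mitochondrial enzymes to a call of lower and 1 to a call of higher. CARS2, the cysteine enzyme, stood at 37.3 and 39.6 CPM in F133V cells and 41.6 and 41.8 CPM in wild-type cells, with -0.12 (adjusted p = 0.185) and -0.30 ± 0.048 GC-adjusted (adjusted p = 1.80e-06). AARS2 (alanine) gave 0.073 and -0.17 GC-adjusted, TARS2 (threonine) 0.041 and -0.15, LARS2 (leucine) -0.061 and -0.13, and EARS2 (glutamate) -0.0061 and -0.10, with GC-adjusted p between 0.00115 and 0.0432. RARS2, the arginine enzyme, stood at 37.4 and 34.7 CPM in F133V cells and 41 and 39.6 CPM in wild-type cells, with -0.16 (adjusted p = 0.0704) and 0.14 ± 0.049 GC-adjusted (adjusted p = 0.0128). Its direction turned with the adjustment, as did those of AARS2 and TARS2. With upper-quartile scaling and no GC adjustment AARS2 was called higher (0.18, adjusted p = 0.0358), and so was TARS2. Without adjustment CARS2 gave -0.16 when F133V replicate 2 was left out, and RARS2 gave -0.25 when F133V replicate 1 was left out. With 1 library left out of the GC-adjusted fit, AARS2 missed without wild-type replicate 2 (-0.11), LARS2 without F133V replicate 2 (-0.12) or wild-type replicate 2 (-0.073), EARS2 without F133V replicate 2 (-0.082) or either wild-type library (-0.12, and -0.086), and RARS2 without F133V replicate 1 (0.11) or either wild-type library (0.17, and 0.13).

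Neither fit called FARS2 (phenylalanine), HARS2 (histidine), SARS2 (serine) or VARS2 (valine). FARS2 stood at 16 and 15.9 CPM in F133V cells and 14.8 and 14.2 CPM in wild-type cells, without overlap but with a log2 fold change of 0.14 (adjusted p = 0.186). HARS2 gave -0.022 (adjusted p = 0.824) and SARS2 0.23 (adjusted p = 0.106). VARS2 had 12 to 23 reads in a library, and its log2 fold change of 0.46 ± 0.371 (adjusted p = 0.314) shows the error at that depth. Of the exon bases, 57% in SARS2 overlap MRPS12 or a read-through gene, 22% in VARS2 overlap GTF2H4, and 15.8% in HARS2 overlap HARS1 or ZMAT2, so reads there may have been left out of the counts.

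The mitochondrial sum was lower in F133V cells, mostly through IARS2. The 16 enzymes summed to 702 and 676 CPM in F133V cells and 792 and 797 CPM in wild-type cells, a log2 ratio of -0.21 with no overlap between the groups. IARS2 alone held 244 and 223 CPM of it in F133V cells and 322 and 319 CPM in wild-type cells. With IARS2 left out, a choice made after its level was seen, the sums were 459 and 453 CPM in F133V cells and 471 and 478 CPM in wild-type cells, a log2 ratio of -0.058. The cytosolic sum was 7.53 and 7.74 times the mitochondrial sum in F133V cells and 6.88 and 6.79 times in wild-type cells. With IARS2 left out the ratio was 11.5 and 11.5 in F133V cells and 11.6 and 11.3 in wild-type cells, with overlapping groups. By class, the 9 class I mitochondrial enzymes counted 0 higher and 4 lower, and GC-adjusted 1 higher and 7 lower. The 7 class II mitochondrial enzymes counted 1 higher and 1 lower, and GC-adjusted 0 higher and 2 lower. With upper-quartile scaling these class II enzymes counted 5 higher and 0 lower. Over all tested genes the shares higher and lower were 27.2% and 27.6%, GC-adjusted 27.6% and 24.5%, and with upper-quartile scaling 36.8% and 21.8%, and the class counts, on few genes, are given as a description.

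**Figure D2:**
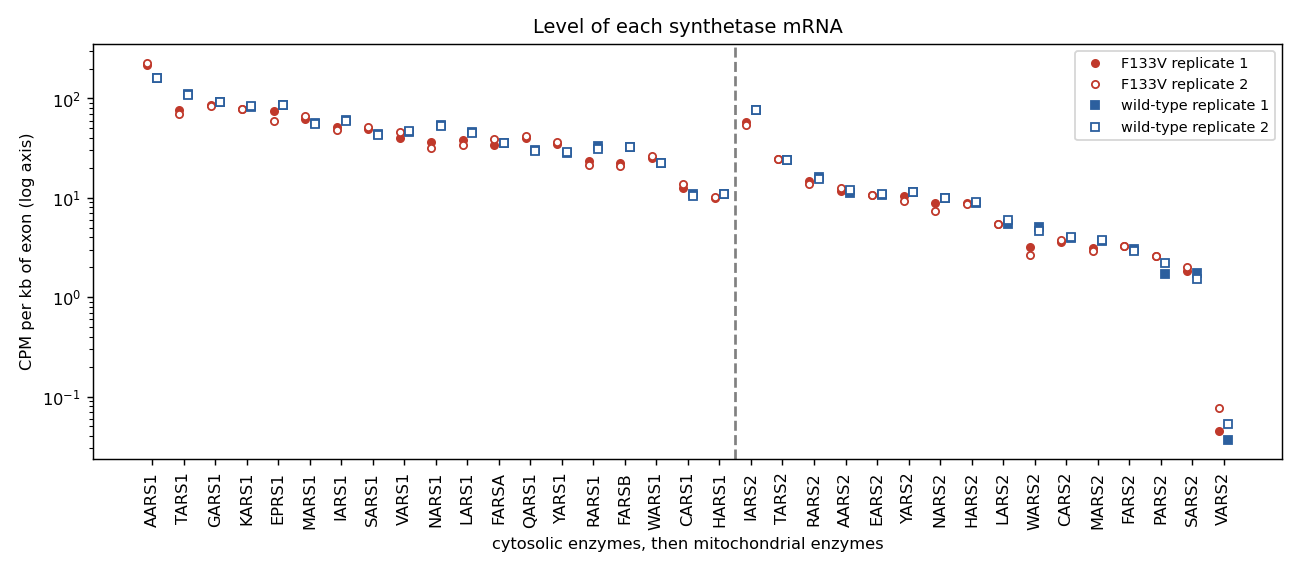
Level of each synthetase mRNA in CPM per kb of merged exons, on a log axis, with cytosolic enzymes left of the dashed line and mitochondrial enzymes right of it, ordered by the mean of the 4 libraries; circles are F133V and squares wild-type libraries. AARS1 stood at 224 in F133V cells and 161 in wild-type cells, and VARS2 lowest.

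Per length, cytosolic enzymes stood above mitochondrial ones. The median level over the 4 libraries was 43.6 CPM per kb of exon for cytosolic enzymes, from 10.5 in HARS1 to 192 in AARS1, and 7.22 for mitochondrial enzymes, from 0.0529 in VARS2 to 66.4 in IARS2. Per kb of the longest transcript the medians were 69.3 and 11.1 in the same units. Where an amino acid has both enzymes, the cytosolic one stood higher per kb of exon in 16 of 17 gene pairs, EPRS1 being paired with EARS2 and with PARS2. The exception was isoleucine, with IARS1 at 0.828 times IARS2, and per kb of the longest transcript that ratio was 1.12, so that the cytosolic enzyme stood higher in all 17. IARS2 stood at 56 CPM per kb in F133V cells and 76.9 CPM per kb in wild-type cells, and IARS1 at 49.8 CPM per kb in F133V cells and 60.1 CPM per kb in wild-type cells.

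The cytosolic and mitochondrial enzymes of an amino acid were set side by side. Of 16 amino acids with both, EPRS1 counting for glutamate and for proline, isoleucine and asparagine had both enzymes called lower without adjustment, 0 had both called higher, and 4 had calls in opposite directions. For methionine, tryptophan and tyrosine the cytosolic enzyme rose and the mitochondrial enzyme fell, and for proline EPRS1 fell (-0.35) and PARS2 rose (0.43). Tryptophan had the widest split of the 4, with log2 fold changes of 0.20 for WARS1 and -0.74 for WARS2. GC-adjusted, threonine alone had both enzymes lower, and 4 amino acids had opposite calls. Alanine, cysteine and tyrosine had the cytosolic enzyme higher and the mitochondrial one lower, and arginine the reverse. Tyrosine was the 1 amino acid split the same way in both fits, with YARS1 called higher and YARS2 lower. The unadjusted YARS2 call was lost with DESeq2 and with upper-quartile scaling. Over all tested genes 27.2% were called higher and 27.6% lower, and GC-adjusted 27.6% and 24.5%. The counts of pairs, on few genes, are given as a description. No test of the difference between the enzymes of a pair was made.

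**Figure D3:**
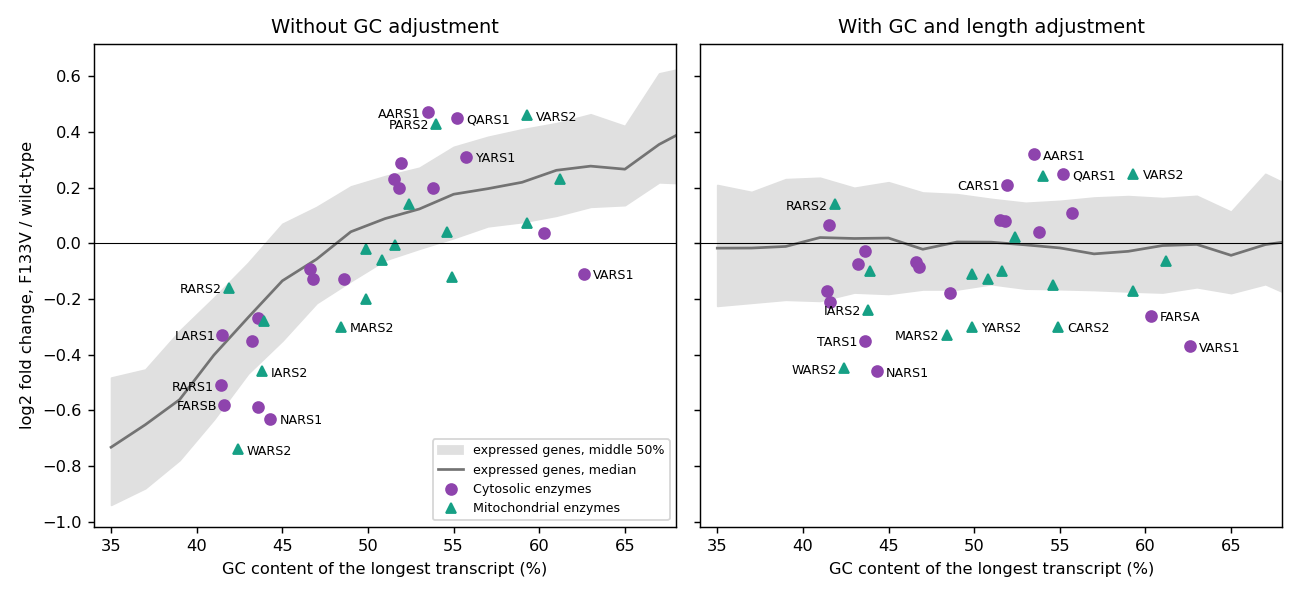
Log2 fold change of F133V over wild-type for each synthetase against the GC content of its longest transcript, without adjustment (left) and with GC and length adjustment (right); circles are cytosolic and triangles mitochondrial enzymes, and the grey line and band are the median and middle 50% of expressed genes. NARS1 lay at -0.63 and -0.46, and VARS1 at -0.11 and -0.37.

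The fold change of a synthetase tracked its GC content. Across the 35 members the Spearman rho of the log2 fold change with GC content was 0.80, and 0.22 GC-adjusted. All 7 cytosolic enzymes under 45% GC fell without adjustment, as did 3366 of 4565 expressed genes in that range. The 5 cytosolic enzymes between 50% and 55% GC all rose, while 742 of 1890 expressed genes there did. In the mitochondrial set, 1 of 6 enzymes between 50% and 55% GC rose. Genes within 2 percentage points of AARS1 in GC content had a median log2 fold change of 0.14, against its own 0.47. Around QARS1 the median was 0.17, against 0.45, and around NARS1 it was -0.19, against -0.63. LARS1 at -0.33 lay near the -0.37 of its GC neighbours, while VARS1 at -0.11 lay under the 0.27 of its own.

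**Figure D4:**
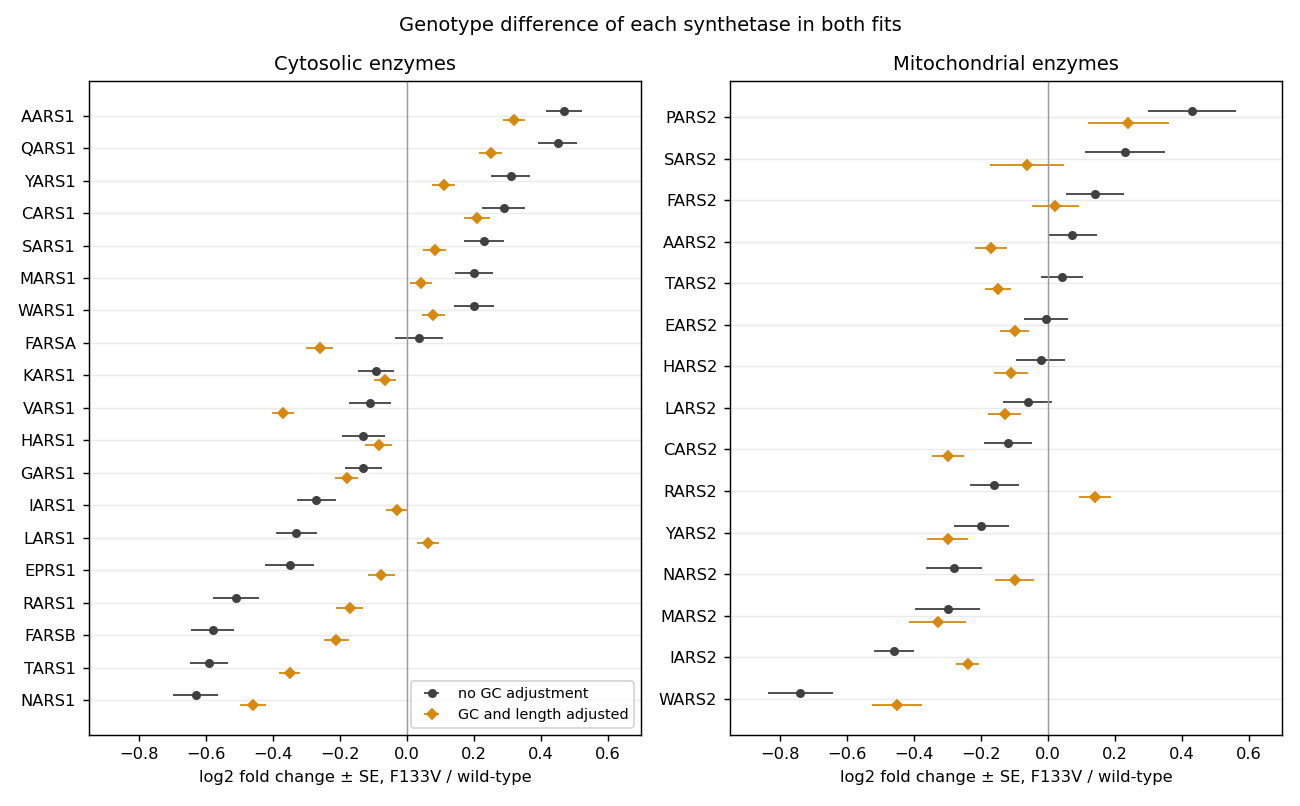
Log2 fold change ± SE of F133V over wild-type for 34 synthetases (VARS2, with few reads, is not drawn), without adjustment (circles) and GC and length adjusted (diamonds). AARS1 was at 0.47 and 0.32, TARS1 at -0.59 and -0.35, and LARS1 at -0.33 and 0.064.

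The proteins that hold the complex together were lower without adjustment. AIMP1, a scaffold, stood at 39.8 and 35.6 CPM in F133V cells and 59.1 and 57.2 CPM in wild-type cells, with a log2 fold change of -0.62 ± 0.0742 (adjusted p = 5.65e-07) that was 0.0001 GC-adjusted (adjusted p = 0.999). EEF1E1 stood at 10.9 and 10.8 CPM in F133V cells and 16.8 and 18.2 CPM in wild-type cells, with -0.69 ± 0.0897 (adjusted p = 1.84e-06) and -0.12 GC-adjusted (adjusted p = 0.204). AIMP2 fell in both fits, at 36.3 and 38 CPM in F133V cells and 46.4 and 43.4 CPM in wild-type cells, with -0.27 ± 0.0732 (adjusted p = 0.0035) and -0.43 ± 0.0486 GC-adjusted (adjusted p = 9.53e-10). Without adjustment AIMP2 missed with upper-quartile scaling (-0.16) and without wild-type replicate 1 (-0.23) or 2 (-0.33). In the list of 8 cofactors and proofreading factors that holds them, 0 rose and 4 fell, GC-adjusted 1 rose and 2 fell, and with upper-quartile scaling 1 rose and 3 fell. Over all tested genes the shares higher and lower were 27.2% and 27.6%, GC-adjusted 27.6% and 24.5%, and with upper-quartile scaling 36.8% and 21.8%.

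Human mitochondria make glutaminyl-tRNA from glutamyl-tRNA through the amidotransferase QRSL1, GATB and GATC, and MTFMT formylates the initiator methionyl-tRNA. QRSL1 stood at 27.2 and 27.4 CPM in F133V cells and 31.9 and 33.6 CPM in wild-type cells. It was lower without adjustment (-0.26, adjusted p = 0.0058) and higher with it (0.19, adjusted p = 0.00388), and the unadjusted call was lost with upper-quartile scaling (-0.15) and without wild-type replicate 1 (-0.30) or 2 (-0.23). GATC stood at 59.3 and 57.1 CPM in F133V cells and 54.3 and 53.6 CPM in wild-type cells, with 0.11 (adjusted p = 0.187) and 0.27 GC-adjusted (adjusted p = 1.64e-06). GATB and MTFMT missed in both fits, at -0.18 and -0.045 without adjustment. Without F133V replicate 2, GATB gave -0.26 and GATC 0.14.

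**Figure D5:**
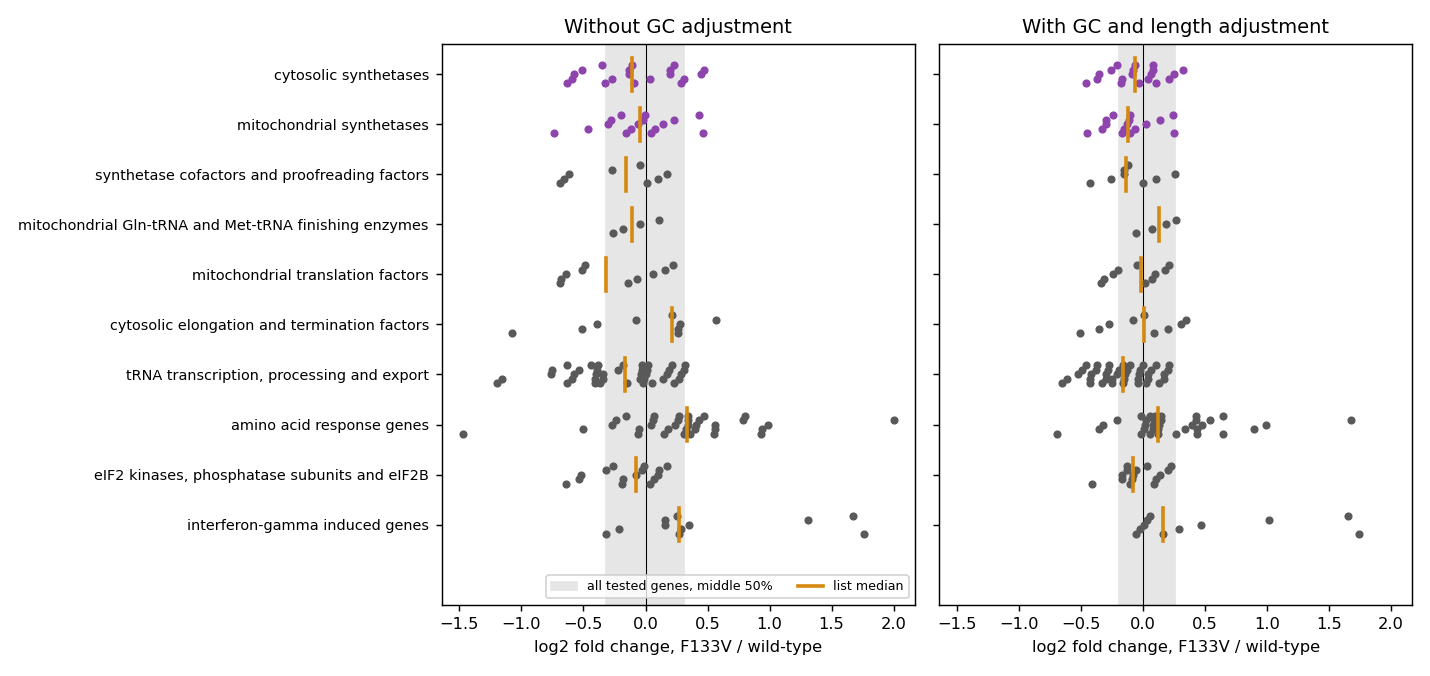
Log2 fold change of F133V over wild-type for each gene of the synthetase sets (purple) and of 8 lists of related genes (grey), without adjustment (left) and GC and length adjusted (right); orange bars are list medians and the grey band the middle 50% of all tested genes. The amino acid response genes had a median of 0.33 and 0.13, and the tRNA transcription, processing and export genes -0.16 in both.

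The amino acid response list, of ATF4 and genes known to respond with it, counted 22 of 34 higher, 5 lower and 7 not passing. Its median was 0.33 against 0.022 over all tested genes, of which 27.2% were called higher and 27.6% lower. GC-adjusted the list counted 20 higher, 4 lower and 10 not passing, beside 27.6% higher and 24.5% lower over all genes, with a median of 0.13 against 0.018. With upper-quartile scaling it counted 27 higher and 3 lower, beside 36.8% and 21.8% over all genes, with a median of 0.45 against 0.13. ATF4 stood at 461 and 472 CPM in F133V cells and 377 and 377 CPM in wild-type cells, with a log2 fold change of 0.31 (adjusted p = 7.42e-05) and 0.054 GC-adjusted (adjusted p = 0.178), while GC adjustment alone called it higher (0.089, adjusted p = 0.0269). DDIT4, an inhibitor of mTORC1, rose by 0.93 ± 0.06 (GC-adjusted 0.65), and CEBPB, a C/EBP factor, by 0.80 ± 0.0616 (GC-adjusted 0.44). SLC7A11, the cystine transporter, fell, at -1.47 ± 0.0753 on the log2 scale (GC-adjusted -0.69). The cytosolic synthetases, which include known ATF4 targets, counted 7 higher and 8 lower beside it.

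The list of eIF2 kinases, phosphatase subunits and eIF2B counted 1 of 15 higher and 7 lower, and GC-adjusted 4 higher and 5 lower. With upper-quartile scaling it counted 4 higher and 4 lower, with a median of 0.035. Over all genes 27.2% were called higher and 27.6% lower without adjustment. The shares were 27.6% and 24.5% GC-adjusted, and 36.8% and 21.8% with upper-quartile scaling. EIF2S1 and EIF2S2, subunits of eIF2, fell with log2 fold changes of -0.64 ± 0.0594 and -0.52 ± 0.0659 (GC-adjusted -0.10 and -0.41). EIF2S1 missed in the GC-adjusted fit without wild-type replicate 1 (-0.082). EIF2AK2, the kinase that senses double-stranded RNA, was lower without adjustment (-0.54, adjusted p = 6.08e-07) and higher with it (0.11, adjusted p = 0.0221), but not called with GC adjustment alone (0.036, adjusted p = 0.495). Interferon-gamma induced genes, set beside WARS1, counted 7 of 11 higher and 2 lower, GC-adjusted 6 higher and 0 lower, and with upper-quartile scaling 9 higher and 0 lower. CIITA, HLA-DRA and CD74, of MHC class II, rose by 1.67, 1.76 and 1.31 on the log2 scale. IRF1 missed (0.16, adjusted p = 0.0835) and gave 0.21 without F133V replicate 1.

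Of 40 genes of tRNA transcription, processing and export, 7 rose, 19 fell and 14 did not pass, beside 27.2% higher and 27.6% lower over all tested genes. GC-adjusted 4 rose, 24 fell and 12 did not pass, beside 27.6% higher and 24.5% lower over all genes. The median was -0.16 in both fits and -0.054 with upper-quartile scaling. With that scaling 10 were higher and 16 lower, beside 36.8% and 21.8% over all genes. POLR3G, a subunit of RNA polymerase III, stood at 20.2 and 19 CPM in F133V cells and 44.2 and 45.8 CPM in wild-type cells (log2 fold change -1.20 ± 0.0768, GC-adjusted -0.49). BDP1, of the initiation factor TFIIIB, fell by a log2 fold change of -1.16 ± 0.0807 (GC-adjusted -0.52), and SSB, the La protein that binds new polymerase III transcripts, by -0.75 ± 0.0755 (GC-adjusted -0.30).

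Downstream of charging, 5 of 9 tested cytosolic elongation and termination factors rose and 3 fell, and GC-adjusted 4 rose and 4 fell. Over all tested genes 27.2% were called higher and 27.6% lower, and GC-adjusted 27.6% and 24.5%. EEF2, the factor that moves the ribosome along the mRNA, stood at 3521.5 and 3811.5 CPM in F133V cells and 2498.4 and 2437.1 CPM in wild-type cells, a log2 fold change of 0.57 ± 0.0536 (GC-adjusted 0.31). ABCE1, which recycles ribosomes, stood at 145 and 130 CPM in F133V cells and 282 and 297 CPM in wild-type cells (-1.08 ± 0.0644, GC-adjusted -0.51). The release factor ETF1 fell with -0.51 ± 0.0605 (GC-adjusted -0.27). Of 10 mitochondrial translation factors 1 rose and 5 fell, with a median of -0.32, and GC-adjusted 2 rose and 4 fell, with a median of -0.015. With upper-quartile scaling 2 rose and 5 fell, beside 36.8% higher and 21.8% lower over all tested genes. GFM1, MTIF2 and MTRF1L, an elongation, an initiation and a release factor, fell with -0.64, -0.68 and -0.69 (GC-adjusted -0.24, -0.34 and -0.31). They were named for having the lowest adjusted p of the list.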

How the data were processed

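RNA was extracted as total RNA and sequenced as single reads of 75 bases, per the labels' protocols. The authors deposited raw counts of reads per gene for each library, whole numbers that are not normalized. They named TopHat2 2.0.10, HTSeq 0.6.0 and the build hg38, per the submitters' processing notes. Not given in the sources used here were the annotation release, poly-A selection and the use of strand. Tallies of reads over no gene (6.12% to 6.53%), over several genes (3.5% to 3.73%) and with several alignments (13.6% to 16.6%) stayed out of library sizes and tests.

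Symbols came from a name table (60444 of 60614 IDs), and positions, GC content and lengths from GENCODE 29 on GRCh38 (58368 IDs). Counts were compared in R 4.3.3 with edgeR 4.0.16: filterByExpr defaults, TMM scaling, the two-sided quasi-likelihood F-test over all 4 libraries, and BH adjustment over all 17539 tested genes with a threshold of 0.05. All 35 members passed the filter. Reads per member ran from 12 to 36246 in a library, and counting error was largest for VARS2. Each SE is the fold change over the square root of F, with 2 residual degrees of freedom and a biological coefficient of variation of 4.64%. The GC adjustment is an offset per library from a smooth in mgcv 1.9.3 on GC content and on log2 length (8 basis functions), fitted where the mean log2 CPM exceeded 2. Levels between genes are CPM per kb of merged exons. The F133V replicates and the wild-type replicates each differed by more than sampling noise (chi-square over degrees of freedom 8.38 and 1.71). The fit was tested on simulated data.

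The members and the 8 companion lists were chosen with earlier results of these data known. The text names every member, SPOP, the 3 scaffolds, the 4 finishing enzymes, ATF4, IRF1, and from each other list up to 3 called genes of lowest adjusted p. Alternatives were DESeq2 1.42.0, its size factors, upper-quartile scaling, no filter, GC alone, the replicate number as a block, and each library left out. A planned comparison of protein sequences was not run.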

Additional observations from a re-analysis of the deposited data

How the results depend on the processing

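With DESeq2 size factors every one of the 35 members kept its direction and its side of the threshold. Over the 16 alternatives, 400 of 560 member results did so, 68 lost a call, 39 gained one and 53 changed sign. AARS1, QARS1, FARSB, NARS1, TARS1, IARS2 and WARS2 kept their calls in all 16. The replicate numbers share only a number (correlation of same-numbered deviations -0.026 over 2 pairs). With the number as a replicate block, 7 cytosolic enzymes were higher and 7 lower and 1 mitochondrial enzyme was higher and 4 lower, GARS1 (adjusted p = 0.0686) and YARS2 (0.0632) losing their calls, and GC-adjusted EPRS1 was then called lower (-0.08, adjusted p = 0.0463).

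Mitochondrial calls were 5 higher and 2 lower with upper-quartile scaling, 0 and 3 with DESeq2, and 9 lower with GC and length, GC alone, or block and GC together. Of all tested genes DESeq2 called 2955 higher and 4008 lower, and upper-quartile scaling 6462 higher and 3831 lower. The cytosolic median log2 fold change was -0.13 with DESeq2 or its size factors, 0.0019 with upper-quartile scaling, -0.066 with GC and length, with or without the block, and -0.034 with GC alone. The mitochondrial median was 0.07 with upper-quartile scaling and -0.12 with each of these GC adjustments.

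Sign changes were as follows. With upper-quartile scaling KARS1 gave 0.019, VARS1 0.0019, EARS2 0.10, HARS2 0.089, LARS2 0.05 and MTFMT 0.066. With GC and length, GC alone, and block with GC, FARSA gave -0.26, -0.23 and -0.26, LARS1 0.064 each time, AARS2 -0.17, -0.18 and -0.17, RARS2 0.14, 0.21 and 0.14, SARS2 -0.063, -0.032 and -0.059, and TARS2 -0.15, -0.14 and -0.15. In the same order QRSL1 gave 0.19, 0.20 and 0.19, MTFMT 0.073, 0.10 and 0.072, and EIF2AK2 0.11, 0.036 and 0.11, while AIMP1 gave 0.0001 and 0.05 in the first pair.

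With 1 library left out, with or without the GC adjustment, the cytosolic enzymes called higher numbered 3 to 8, the mitochondrial ones 0 to 1 higher and 2 to 11 lower, and all genes 2786 to 5225 higher. The numbers of cytosolic enzymes and of all genes called lower varied over these fits too. The mitochondrial range of calls is therefore not particular to that set. The cytosolic median ran from -0.13 to -0.013 and the mitochondrial one from -0.18 to -0.0051. Log2 fold changes ran from -0.55 to 0.025 for EPRS1, -0.29 to 0.11 for FARSA, -0.45 to 0.084 for LARS1, -0.23 to 0.13 for AARS2, -0.16 to 0.0096 for EARS2, -0.045 to 0.17 for FARS2, -0.25 to 0.17 for RARS2, -0.15 to 0.33 for SARS2, -0.23 to 0.041 for TARS2 and -0.12 to 0.77 for VARS2. They ran from -0.74 to 0.03 for AIMP1, -0.30 to 0.24 for QRSL1, -0.27 to 0.032 for GATB, -0.069 to 0.093 for MTFMT, -0.01 to 0.31 for ATF4, -0.0079 to 0.21 for IRF1 and -0.61 to 0.13 for EIF2AK2. A group left with 1 library was assumed to vary like the other, so such calls rest on the spread of the other genotype's replicates. The F133V replicates differed by more than the wild-type ones (chi-square over degrees of freedom 8.38 and 1.71). What caused the changes in value and in calls was not tested. Depth limited VARS2 most, and PARS2 and SARS2, with 156 to 228 reads in a library, had SEs of 0.131 and 0.12, against a median of 0.0661 over the 34 members with at least 100 reads in every library, and 2 libraries per genotype limit the precision of every value.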
